A study of Homo sapiens with 20 samples.

Results

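Interleukin-6 family cytokines, interleukin-1 family cytokines and colony-stimulating factors were followed in ovarian tumors of mice given sodium gluconate or phosphate-buffered saline (PBS). The 10 genes were taken by symbol as the members of these families: the ligands IL6, LIF and IL11, the signaling receptors IL6ST and OSMR, the ligands IL1A, IL1B and IL18, and the colony-stimulating factors CSF1 and CSF2. All 10 were among the 24196 genes of the deposited table. The tumors grew from OVCAR8, an established human line of high-grade serous ovarian carcinoma, placed in the ovarian fat pad of NSG mice, which lack T, B and NK cells and therefore cannot show a lymphocyte response. The labels call the samples tumors, while the study's text speaks of treated cells, and the labels were followed here. In the study's treatment protocol for tumor-bearing mice the mice were 6 weeks old when the cells were injected. They received PBS or 1 mg/kg sodium gluconate into the abdomen every 7 days for 35 days. The study names the treated tumors OVCAR8-sgNC-luc, from cells with a non-targeting guide and a luciferase reporter, while the labels say OVCAR8. Each group had 4 libraries of polyA RNA, all from this 1 cell line, and another 12 libraries of the series, from knockout OVCAR8 cells and their non-targeting controls, were not analysed here. The labels did not say which mouse a library came from, so p-values measure the spread between these libraries.

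Interleukin 6, leukemia inhibitory factor (LIF) and interleukin 11 are secreted proteins that signal through a shared receptor chain, gp130, which IL6ST encodes. OSMR pairs with gp130 to form the receptor of oncostatin M, and these receptors activate JAK kinases and the transcription factor STAT3. Interleukin 1 alpha and beta act on the interleukin 1 receptor and switch on NF-kappaB, while interleukin 18 is a relative that, like interleukin 1 beta, is cut from a precursor by caspase 1. CSF1 and CSF2 encode the growth factors M-CSF and GM-CSF of macrophages and granulocytes. Interleukin 6 is abundant in the ascites of ovarian cancer, and both tumor cells and stromal cells can make it.

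The genes lie on 7 chromosomes of GRCh38. In RefSeq's annotation of GRCh38.p14, IL6 spans chr7:22727200-22731998 on the plus strand, LIF chr22:30240453-30246759 on the minus strand, IL11 chr19:55364382-55370463 on the minus strand and IL18 chr11:112143260-112164094 on the minus strand. IL1A (chr2:112773925-112784493) and IL1B (chr2:112829751-112836779) are neighbors on the minus strand with 45257 bases between them. On chromosome 5, OSMR (chr5:38846012-38945579) and CSF2 (chr5:132073789-132076170) are on the plus strand and IL6ST (chr5:55935095-55994963) is on the minus strand, and CSF1 (chr1:109910506-109930992) is on the plus strand. RefSeq's promoter table held 7 of the 10 genes and not LIF, IL18 or CSF1. The 250 bases before the start site are shown for IL6 and IL11, the gp130 ligands of the table, for IL6ST, the steady and abundant receptor, and for IL1B, which was close to undetected, so that promoters poor and rich in G and C can be compared. Each reads 5′ to 3′ on the strand of its gene, and capitals mark a match to 1 of the motifs searched.
IL6, chr7:22726950-22727199, plus strand: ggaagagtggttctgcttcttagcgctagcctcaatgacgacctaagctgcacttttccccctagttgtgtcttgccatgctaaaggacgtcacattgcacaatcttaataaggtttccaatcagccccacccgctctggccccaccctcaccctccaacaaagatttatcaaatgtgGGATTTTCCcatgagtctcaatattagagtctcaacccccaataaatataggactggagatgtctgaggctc
IL11, chr19:55370464-55370713, minus strand: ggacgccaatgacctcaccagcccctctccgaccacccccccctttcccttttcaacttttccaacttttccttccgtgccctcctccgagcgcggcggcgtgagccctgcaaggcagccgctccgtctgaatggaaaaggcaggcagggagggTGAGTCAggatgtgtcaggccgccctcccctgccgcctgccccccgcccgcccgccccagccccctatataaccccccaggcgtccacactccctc
IL6ST, chr5:55994964-55995213, minus strand: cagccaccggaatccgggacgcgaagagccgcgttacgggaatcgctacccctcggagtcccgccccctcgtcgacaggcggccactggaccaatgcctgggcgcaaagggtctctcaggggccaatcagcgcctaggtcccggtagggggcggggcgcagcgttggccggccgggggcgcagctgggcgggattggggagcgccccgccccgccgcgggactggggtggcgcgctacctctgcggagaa
IL1B, chr2:112836780-112837029, minus strand: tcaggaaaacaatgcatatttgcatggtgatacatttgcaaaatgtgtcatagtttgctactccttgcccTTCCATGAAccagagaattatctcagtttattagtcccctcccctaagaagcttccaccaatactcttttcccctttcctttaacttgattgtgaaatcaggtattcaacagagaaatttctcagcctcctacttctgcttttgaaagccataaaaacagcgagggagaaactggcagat

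The receptor promoters were rich in G and C and the interleukin 1 promoters were poor in them. IL6ST had 73.6% G and C and 31 CpG dinucleotides in its 250 bases, and OSMR had 66.4% and 17, against medians of 58.0% and 11 over 35116 promoters. IL1B had 40.0% and 1 CpG, and IL1A had 37.6% and 7 before its upstream start and 42.0% and 8 before its downstream start. IL6 had 47.6% and 4, CSF2 54.0% and 4, and IL11 67.2% and 16. The motifs searched on both strands were GGANTTTCC for NF-kappaB, TGANTCA for AP-1, TTCNNNGAA for STAT factors, TGACGTCA for CREB, TATAAA for the TATA box and GGAATG for TEAD factors, the partners of YAP. The NF-kappaB letters stood in IL6, with their first base 72 bases before the start, and in 1.45% of all promoters. AP-1 letters stood in IL11, from base 96 before the start, and in IL1A, at 105 and 55 before the downstream of its listed start sites, the first of these being also the match at 12 before the upstream start, against 6.57% of all promoters. STAT letters stood in IL1B, at 180, and in CSF2, at 190, against 6.57% of all promoters. TATAAA was found in IL1A alone, at 239 before the upstream start, against 10.7% of all promoters, and neither the CREB letters (1.65%) nor GGAATG (11.9%) were in the 250 bases of any of the 7 genes. A match is a description of the letters and not evidence of binding, and these promoters share no motif that all 7 hold.

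Levels are given as FPKM, the fragments of a gene scaled by its length and by the fragments of the library, and are comparable between genes because they are per length. The values fell on whole fragments in all 24196 genes, and the depth of each library could be read from these steps. The libraries had 39325749 to 46551535 fragments except PBS replicate 4, which had 3953206 and was 9.95 to 11.8 times shallower than each of the others. Its log2 values correlated with those of the other libraries at r of 0.938 to 0.951, while pairs of the other libraries reached 0.994, so results are given with and without it. Markers of carcinoma epithelium were present (KRT8 averaged 846 FPKM and PAX8 42.7), MUC16 was at 0.000332 FPKM, and markers of other cell types were mixed. PTPRC of leukocytes averaged 0.00668 FPKM, DCN of fibroblasts 0.0209 and CLDN5 of endothelium 0.00126. The minimum for testing, a mean of 0.5 FPKM, was reached by 5 of 8 fibroblast markers (COL1A1, LUM, PDGFRB, FAP and COL3A1, from 1.23 to 144.7 FPKM). It was also reached by 2 myeloid markers (CD68 at 24.7 and ITGAM at 0.831 FPKM) and by TIE1 of endothelium (0.696 FPKM). The table lists human genes, and how fragments from mouse cells were treated is not given in the sources used here. In bulk tumors, fewer cells of a type and less RNA per cell cannot be told apart.

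IL18 was the most abundant of the 10 genes, and IL1A and IL1B were the least abundant. Over the 7 deeper libraries the order of mean level was IL18 (105.4 FPKM), IL6ST (44.6), OSMR (17.7), IL6 (10.6), CSF1 (4.30), LIF (3.54), IL11 (1.86), CSF2 (0.298), IL1A (0.121) and IL1B (0.0459). IL18 lay above IL6ST, and IL6ST above OSMR, in 8 of 8 libraries. Among neighbors in this order and over the 7 deeper libraries, OSMR and IL6 had overlapping ranges, as had IL6 and CSF1, CSF1 and LIF, CSF2 and IL1A, and IL1A and IL1B, whereas the ranges of LIF and IL11, and of IL11 and CSF2, did not overlap. In PBS replicate 4 LIF was below IL11. IL18 ranked above 97.6% of the genes in the table by its mean, IL6 above 79.7% and IL1B above 29.4%.

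No difference between gluconate and PBS in these genes passed correction for the number of genes tested. Of the 10 genes, 7 reached a mean of 0.5 FPKM and were tested. None of them had an adjusted p under 0.05, as 0% of the 12486 genes had, and 1 of the 7, IL6, was higher at an unadjusted p under 0.05, where 3.13% of all genes were higher and 1.49% lower. Of the 7, 6 had a log2 fold change above 0, as had 66.4% of all genes tested, and the median was 0.27 beside 0.07 over all genes. Without PBS replicate 4, 6 of the 7 were again above 0, as were 48.9% of all genes, with medians of 0.10 and -0.0033, and none of the 7 had an unadjusted p under 0.05, where 2.83% of all genes were higher and 3.36% lower. The groups did not overlap in 0 of the 10 genes and in 3.49% of the genes tested. The direction of the calls over all genes moved with scaling and with PBS replicate 4. Of the genes at an unadjusted p under 0.05, 67.8% were higher with gluconate in the FPKM as deposited, 50.8% after scaling by median ratios and 45.7% without PBS replicate 4.

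IL6, the namesake ligand, was higher on average in the gluconate tumors but the groups overlapped. In the PBS libraries its level was 12.1, 8.74, 5.92 and 5.37 FPKM in replicates 1 to 4, and in the gluconate libraries 9.32, 12.0, 9.99 and 16.4 FPKM. PBS replicate 1 lay above 3 of the 4 gluconate libraries, and gluconate replicate 4 held the highest value of all. The means were 8.03 ± 3.08 FPKM with PBS and 11.9 ± 3.19 FPKM with gluconate (SD, n = 4 each). The log2 fold change was 0.60 ± 0.27 (SE), or 1.52-fold, with an unadjusted p of 0.048 in limma and an adjusted p of 0.740 over 12486 genes, and the two-sided exact permutation test gave p = 0.143. With limma's voom and library weights on the recovered fragments the log2 fold change of IL6 was 0.29 (unadjusted p = 0.191). Without PBS replicate 4 it was 0.44 ± 0.24 with an unadjusted p of 0.102, and leaving out each library in turn gave unadjusted limma p-values from 0.0068 without PBS replicate 1 to 0.137 without gluconate replicate 4.

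LIF, which keeps embryonic stem cells undifferentiated in culture and signals through gp130 and LIFR, differed mainly in a single PBS library. Its PBS levels were 3.27, 3.24, 2.88 and 0.773 FPKM, and its gluconate levels were 2.65, 4.65, 4.04 and 4.04 FPKM. The value of 0.773 FPKM in PBS replicate 4 rests on 13 fragments (95% Poisson interval 0.412 to 1.32 FPKM), and that interval lay below all other libraries. For LIF the log2 fold change was 0.73 ± 0.41 with an unadjusted p of 0.108 and an adjusted p of 0.740. Without PBS replicate 4 it was 0.26 ± 0.17 (unadjusted p = 0.151 in limma), when gluconate replicate 1 was lower and the other 3 gluconate libraries higher than each PBS library.

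IL11, a gp130 ligand known from fibrosis and bone remodeling, showed no separation of the groups. The PBS libraries had 2.32, 1.48, 1.67 and 0.957 FPKM and the gluconate libraries 1.66, 2.01, 1.87 and 1.99 FPKM. Its highest and its lowest value were both in PBS, and the lowest, in replicate 4, rests on 9 fragments. The log2 fold change was 0.27 ± 0.23 (unadjusted p = 0.273 in limma), and 0.06 ± 0.16 without PBS replicate 4 (unadjusted p = 0.698).

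The receptor chains varied little between libraries. IL6ST had 48.7, 40.0, 39.9 and 42.1 FPKM with PBS and 44.9, 45.5, 44.3 and 49.0 FPKM with gluconate, with a log2 fold change of 0.11 ± 0.08 (unadjusted p = 0.216 in limma). Each gluconate library lay above at least 3 of the 4 PBS libraries, while PBS replicate 1 was above 3 of the 4 gluconate libraries. OSMR had 17.7, 16.4, 19.3 and 17.6 FPKM with PBS and 18.3, 15.8, 19.0 and 17.3 FPKM with gluconate, and its groups covered nearly the same range. For OSMR the log2 fold change was -0.01 ± 0.09 (unadjusted p = 0.885 in limma), and -0.02 ± 0.09 without PBS replicate 4. Across the 7 deeper libraries the coefficient of variation was 7.38% for OSMR, 7.84% for IL18 and 8.20% for IL6ST, against 30.9% for IL6, 27.6% for CSF1, 20.4% for LIF and 15.1% for IL11. The ratio of OSMR to IL6ST stayed between 0.348 and 0.485 in the 7 deeper libraries and was 0.419 in PBS replicate 4.

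Of the interleukin 1 family ligands IL1A, IL1B and IL18, only IL18 was above the minimum for testing. IL18, which drives interferon gamma production by lymphocytes, had 105.6, 101.6, 95.9 and 76.9 FPKM with PBS and 112.2, 112.7, 115.1 and 94.8 FPKM with gluconate. Of the gluconate libraries, replicates 1 to 3 were above all PBS libraries and replicate 4 was below all PBS libraries but replicate 4. The log2 fold change of IL18 was 0.20 ± 0.11 (unadjusted p = 0.101 in limma, adjusted p = 0.740), and 0.10 ± 0.08 without PBS replicate 4 (unadjusted p = 0.230). Without gluconate replicate 4 the unadjusted p of IL18 was 0.045, when that of IL6 was 0.137. PBS replicate 4 had 351 IL18 fragments, with a 95% Poisson interval of 69.0 to 85.4 FPKM that lay below the other 7 libraries.

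IL1A, whose product is active as a precursor and works as an alarm signal of dying cells, had 0.104, 0.112, 0.334 and 0 FPKM with PBS and 0.0354, 0.0556, 0.0967 and 0.111 FPKM with gluconate. These values rest on 0 to 28 fragments. The 0 in PBS replicate 4 allows up to 0.361 FPKM by the limit of 3 fragments and 0.444 FPKM by its 95% Poisson interval. PBS replicate 3 was the highest, with 28 fragments, and the exact permutation test gave p = 0.571 with all libraries and 0.114 without PBS replicate 4, where no p under 0.0571 was possible. IL1B had 0, 0.0410, 0.0798 and 0 FPKM with PBS and 0.0789, 0.0744, 0.0324 and 0.0149 FPKM with gluconate, on 0 to 5 fragments a library (exact permutation p = 0.400). By the limit of 3 fragments the 0 in PBS replicate 1 allows up to 0.0419 FPKM, and the 0 in PBS replicate 4 up to 0.483 FPKM. Their 95% Poisson intervals reach 0.0515 and 0.594 FPKM. A difference in IL1B was not detectable at this depth.

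CSF1, the factor that macrophages need for survival, followed IL6 in its highest and lowest libraries. Its levels were 4.10, 4.52, 2.53 and 1.58 FPKM with PBS and 3.84, 3.95, 4.68 and 6.49 FPKM with gluconate. As for IL6, PBS replicates 3 and 4 were lowest and gluconate replicate 4 was highest. The CSF1 levels of PBS replicates 1 and 2 lay within its gluconate range. The log2 fold change of CSF1 was 0.64 ± 0.31 (unadjusted p = 0.072 in limma, adjusted p = 0.740), and 0.35 ± 0.22 without PBS replicate 4 (unadjusted p = 0.147). The ratio of CSF1 to IL6 was 0.294 to 0.517 in PBS and 0.330 to 0.468 in gluconate libraries (exact permutation p = 0.83). CSF2 had 0.139, 0.191, 0.0954 and 0.642 FPKM with PBS and 0.409, 0.148, 0.0323 and 1.07 FPKM with gluconate. The 2 highest CSF2 values differ in their basis, since gluconate replicate 4 had 36 fragments and PBS replicate 4 had 2. The log2 fold change of CSF2 was 0.24 (exact permutation p = 0.800), and 0.65 without PBS replicate 4 (exact permutation p = 0.514).

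**Figure D1:**
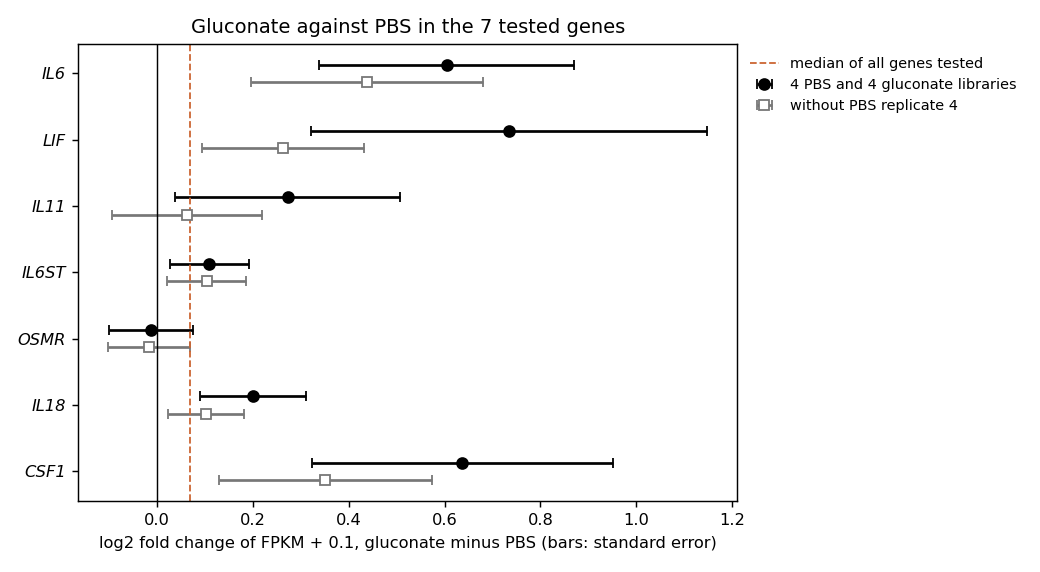
Log2 fold change of FPKM + 0.1, gluconate minus PBS (x axis), for the 7 tested genes (y axis), with standard errors, for all 8 libraries (filled circles) and without PBS replicate 4 (open squares), and the median of all genes tested at 0.07 (dashed). LIF moves from 0.73 to 0.26 without that library, and IL6ST and OSMR lie near 0.

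Several of the genes were low together in the shallow library. PBS replicate 4 held the lowest value of 5 of the 7 tested genes (IL6, LIF, IL11, IL18 and CSF1), and it held the lowest value of 58.0% of all genes tested. Relative to the median of the deeper libraries it stood at 0.236 for LIF, 0.385 for CSF1, 0.512 for IL11, 0.537 for IL6 and 0.728 for IL18, but at 0.937 for IL6ST and 0.994 for OSMR. The summed fibroblast list was also low there, at 45.3 FPKM beside 130 to 185 in the other PBS libraries and 165 to 192 with gluconate, of which COL1A1 (mean 144.7 FPKM) is the largest part while COL1A2, the other chain of the same collagen, averaged 0.0295 FPKM. Its part in these results was not tested. Among the 7 tested genes gluconate replicate 4 held the highest value of IL6, IL6ST and CSF1, and it held that of 15.2% of all genes tested. It also held the highest value of CSF2, which was not tested in limma.

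**Figure D2:**
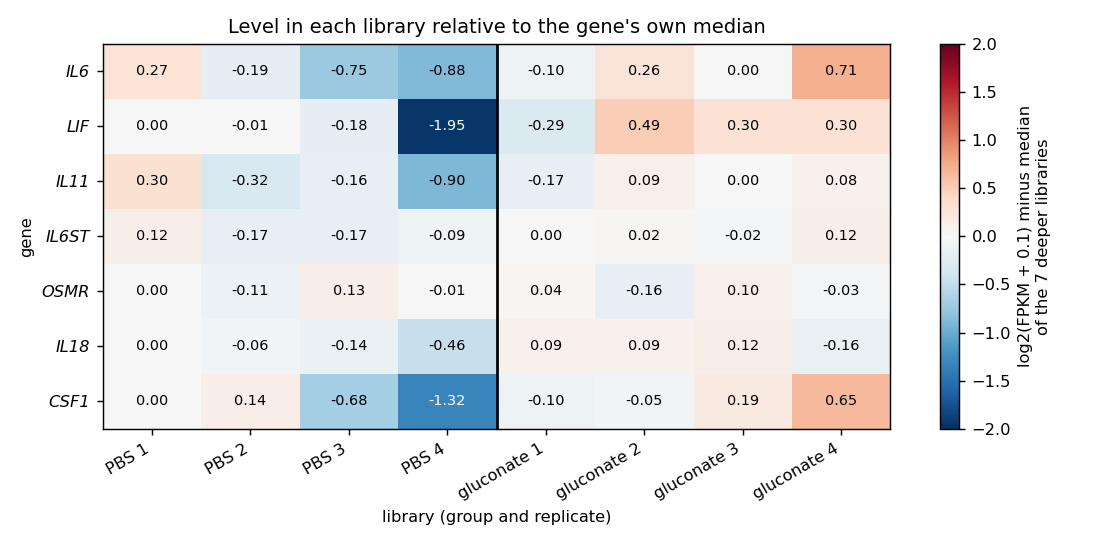
Log2(FPKM + 0.1) of the 7 tested genes (rows) in each library (columns, PBS left and gluconate right of the line) minus the gene's median over the 7 deeper libraries, as color and number. PBS replicate 4 is lowest for LIF (-1.95) and CSF1 (-1.32), and IL6ST and OSMR range from -0.17 to 0.13.

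By the likeness of their profiles over the 7 deeper libraries, measured as the root mean square difference of z-scores, the genes nearest to IL6 among 12485 were TMEM50B (0.114) and C1orf131 (0.155). TMEM50B ranged from 7.03 to 10.7 FPKM and C1orf131 from 6.21 to 8.82 FPKM, less than the range of IL6. HLA-E (0.107), which presents peptides to NK cells, and ALAD (0.123), an enzyme of heme synthesis, were nearest to CSF1, and IGDCC4 (0.214) and PTH2R (0.225) were nearest to LIF. Among the other tested members, IL6ST ranked 309 and CSF1 ranked 436 in likeness to IL6, LIF ranked 2103 and IL11 1932. IL18 ranked 6151 and OSMR ranked 10014. With so many genes and 7 libraries, near matches occur, and these are descriptions.

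The wider pathways were read from 11 lists with 111 genes, of which 102 were in the table and 75 were tested. At an unadjusted p under 0.05, 1 of the 75 was higher (1.33%, beside 3.13% of all genes tested) and 2 were lower (2.67%, beside 1.49%), and none passed the adjusted threshold. Their median log2 fold change was 0.03, beside 0.07 over all genes, and -0.04 without PBS replicate 4. The groups did not overlap in 2 of the 75 (2.67%, beside 3.49% of all genes tested).

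Of the other ligands of the interleukin 6 family CLCF1, a ligand of the CNTF receptor, was the most abundant, at 7.88 FPKM with PBS and 8.04 with gluconate (log2 fold change 0.03 ± 0.11). EBI3, a subunit of interleukin 27, averaged 4.40 FPKM, CTF1, which encodes cardiotrophin 1, averaged 1.38 FPKM, and OSM, the ligand of OSMR, averaged 0.00125 FPKM and was at 0 in every PBS library. The median over the 3 tested ligands was 0.15, and 0.01 without PBS replicate 4. IL6R is the binding chain that gives gp130 its specificity for interleukin 6. It was the 1 receptor of its list with an unadjusted p under 0.05, where 1.49% of all genes were lower. Its PBS levels were 0.883, 0.975, 1.33 and 1.67 FPKM and its gluconate levels 0.801, 0.804, 0.764 and 0.605 FPKM. All gluconate libraries lay below all PBS libraries, and 3.49% of all genes tested also had groups without overlap. The exact permutation p was 0.0286 for IL6R, which had a log2 fold change of -0.61 ± 0.22 (unadjusted p = 0.023 in limma, adjusted p = 0.740). Without PBS replicate 4 the log2 fold change of IL6R was -0.45 (unadjusted p = 0.033). Over 17 alternative fits in limma its unadjusted p was under 0.05 in 13 and at most 0.110. The level of IL6R in every group was a small part of that of IL6ST, and the PBS replicate 4 value rests on 44 fragments. Of the other receptors, IL27RA was the most abundant at 9.83 FPKM (log2 fold change 0.28, and 0.12 without PBS replicate 4), CNTFR was the least at 0.120 FPKM, a mean that PBS replicate 4 at 0.707 FPKM made up for the most part, and the median over the 4 tested receptors was -0.01, and -0.06 without PBS replicate 4.

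Of 10 tested JAK, STAT and SOCS genes none passed an unadjusted p of 0.05, and their median log2 fold change was 0.02, and -0.07 without PBS replicate 4. CISH, a feedback inhibitor below the minimum for testing, was the least abundant of the list at 0.258 FPKM. Among 12 tested STAT3 response genes, whose median was 0.16 and -0.0082 without PBS replicate 4, 1 was lower at an unadjusted p under 0.05, beside 1.49% of all genes. It was PIM3, a serine/threonine kinase gene. PIM3 had 23.4, 23.5, 25.0 and 26.6 FPKM with PBS and 20.4, 18.0, 20.9 and 18.8 FPKM with gluconate, with no overlap between the groups, as in 3.49% of all genes. Its log2 fold change was -0.33 ± 0.08 (unadjusted p = 0.0024 in limma, adjusted p = 0.740), it was -0.29 without PBS replicate 4 (unadjusted p = 0.0023), and the exact permutation p was 0.0286, the smallest that 4 against 4 allows. MCL1, which blocks apoptosis, was the most abundant of that list at 83.2 FPKM, and its log2 fold change was -0.03 ± 0.06. LRG1 was the least abundant at 0.0447 FPKM.

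Few other interleukin 1 family ligands were present: IL33 averaged 0.00173 FPKM, and IL18BP, the secreted inhibitor of interleukin 18, was the highest at 1.64 FPKM with a log2 fold change of 0.03 ± 0.21 and -0.06 without PBS replicate 4. The inhibitor was therefore far below IL18 itself, at 105.4 FPKM in the deeper libraries, on a per-length scale. Of the receptors of the family, SIGIRR, a dampening receptor, was the most abundant at 6.02 FPKM and IL18RAP, the accessory chain of the interleukin 18 receptor, was the least at 0.0124 FPKM, and none of the 5 tested passed. IRAK1, the kinase behind interleukin 1 receptors, led its list of 12, of which 10 were tested, at 45.1 FPKM (log2 fold change -0.10 ± 0.09). PELI2, which was not tested, was last at 0.0771 FPKM. In the list of inflammasome and processing genes, with 9 tested, CAPN2, a calpain, was the most abundant at 155.9 FPKM and CASP5 the least at 0.00378 FPKM, and none passed. The medians of these lists were 0.18 for the receptors, 0.09 for signaling and 0.01 for processing, and 0.05, -0.03 and -0.04 without PBS replicate 4.

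In the list of interleukin 1 and NF-kappaB response genes, 1 of 14 tested, SOD2, was higher at an unadjusted p under 0.05, beside 3.13% of all genes. SOD2, the manganese superoxide dismutase of mitochondria, had 10.5, 6.14, 6.71 and 6.66 FPKM with PBS and 10.1, 8.55, 9.93 and 14.9 FPKM with gluconate. PBS replicate 1 lay above 3 of the 4 gluconate libraries. SOD2 had a log2 fold change of 0.53 ± 0.21 (unadjusted p = 0.030 in limma, adjusted p = 0.740), or 0.48 without PBS replicate 4 (unadjusted p = 0.047). The unadjusted p was 0.050 after scaling by median ratios, and the exact permutation p was 0.114. The list's median was 0.0029, and -0.0021 without PBS replicate 4. ICAM1 was its most abundant gene at 67.5 FPKM (log2 fold change 0.01 ± 0.13), and PTGS2 was its least at 0.00851 FPKM.

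Of the colony-stimulating factor genes beside CSF1 and CSF2, IL34, the other ligand of the CSF1 receptor, was the highest at 2.19 FPKM, with a log2 fold change of 0.46 ± 0.24 (unadjusted p = 0.086) and 0.28 without PBS replicate 4, and it was the 1 gene tested of 7 in the table, while CSF3R was the lowest at 0.000847 FPKM. Among 9 regulators of cytokine mRNA decay, with a median of -0.09, none passed. HNRNPD, which binds AU-rich elements, was the most abundant at 154.3 FPKM. Its level was 360.3 FPKM in PBS replicate 4 against 114.4 to 134.2 in the gluconate libraries, and its log2 fold change was -0.45 with that library and -0.07 without it. ZC3H12A, the Regnase-1 nuclease gene, was the lowest of the list at 1.94 FPKM, with a log2 fold change of 0.12 ± 0.20 and -0.04 without PBS replicate 4.

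The summed markers of other cell types overlapped between the groups, the fibroblast list included. All 5 tested fibroblast markers had a log2 fold change above 0, as had 66.4% of all genes and IL6, LIF and CSF1, and without PBS replicate 4 COL3A1 was at -0.04 and the other 4 above 0. The list had a median of 0.49 beside 0.07 over all genes, and of 0.20 without PBS replicate 4, and none of the 5 had an unadjusted p under 0.05. The summed myeloid list, 6 of 8 markers in the table, was 25.9 to 28.9 FPKM with PBS and 20.8 to 28.0 FPKM with gluconate, and CD68 made up most of it, while PTPRC was at 0 to 0.0165 FPKM. The summed endothelial list was 0.830 to 3.37 FPKM with PBS and 0.686 to 1.02 with gluconate, and its only tested gene, TIE1, had a log2 fold change of -1.28 ± 0.56 (unadjusted p = 0.047 in limma, adjusted p = 0.740, and unadjusted p = 0.066 without PBS replicate 4). TIE1 ranged from 0.270 to 2.86 FPKM within PBS, and the other 5 genes of the list were below the minimum for testing. Of the lymphoid list 3 of 6 were in the table and none reached the minimum for testing, with GNLY, a gene of cytotoxic lymphocytes, the lowest at 0.00247 FPKM. The 7 tested epithelial markers went in both directions, with a median log2 fold change of 0.06 and -0.14 without PBS replicate 4. KRT7 was at 0.73 ± 0.26 (unadjusted p = 0.020, adjusted p = 0.740), beside KRT8 at -0.20, KRT18 at -0.33 and WT1 at -0.67 (-0.14 without PBS replicate 4). The part of these shifts in the results above was not tested.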

How the data were processed

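RNA-seq values of 8 OVCAR8 tumor libraries were analysed. The authors deposited FPKM per gene symbol, from polyA libraries read in pairs and, per the labels, set against GRCh38; the aligner, the counting and the annotation are not given in the sources used here. Columns are headed by C or T and a number. They were read as PBS (C) and gluconate (T), since the study writes gluconate against PBS as T over C and no other groups have 4 samples. All 8 columns were used.

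FPKM values were divided by the step of 1 fragment to recover whole fragments (100% of values within 0.001 fragments) for depth, 95% Poisson intervals and a limit of 3 fragments for values of 0, which cover counting error only. An unpaired fit in limma 3.58.1 (R 4.3.3; lmFit and trended eBayes) compared the groups on log2(FPKM + 0.1). It covered the 12486 genes whose mean FPKM reached 0.5, with Benjamini-Hochberg adjustment. Fold changes on this scale understate those of low genes. IL1A, IL1B and CSF2 fell below the minimum and were compared, like the ratios, by two-sided exact permutation tests of means over the 70 possible assignments (35 without PBS replicate 4) with scipy 1.17.1. Replicate numbers were not taken to pair the libraries. Same-numbered libraries deviated together at r of -0.18, 0.08, 0.17 and -0.06, and different-numbered ones at -0.21 to 0.16. So few values cannot exclude a pairing. The members and gene lists were chosen with earlier results of these data known. The genes named from a list are those at an unadjusted p under 0.05 and its most and least abundant, a few others being named after their values were seen; 2 genes that this rule names are not reported here. Alternatives were other pseudocounts, minimums and scalings, limma's voom on the recovered fragments, omission of single libraries and a replicate block. Promoters and positions came from RefSeq tables of GRCh38.p14. Figures were drawn with matplotlib 3.10.9.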

Additional observations from a re-analysis of the deposited data

Results flagged for a closer look

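Of 20 groups of 4 libraries (10 genes in 2 groups), 2 held a library far from the other 3, where chance gives about 1. LIF was at 0.773 FPKM in PBS replicate 4, the shallow library, beside 2.88 to 3.27 FPKM in the other PBS libraries, and the gap was 0.841 of the group's range. IL18 was at 94.8 FPKM in gluconate replicate 4 beside 112.2 to 115.1 FPKM in the other gluconate libraries, and the gap was 0.855 of the range. Both exceed Dixon's 95% critical value for 4 values. Without PBS replicate 4 the log2 fold change of LIF went from 0.73 to 0.26, and without gluconate replicate 4 that of IL18 went from 0.20 to 0.26.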

How the results depend on the processing

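No member and no gene had an adjusted p under 0.05 in limma under any of the alternatives fitted, in which 0 genes passed, while 37 genes had an unadjusted p under 0.05 with at least a 2-fold change. At an unadjusted p under 0.05, 391 genes were higher and 186 lower; without the minimum they were 747 and 281, and the lower genes were 348 after median-ratio scaling, 353 after quantile normalization and 398 with voom and library weights. Leaving out 1 library gave 159 to 929 higher and 108 to 419 lower genes, the extremes of the higher genes being without gluconate replicate 4 and without PBS replicate 1. Of the members, 1 had an unadjusted p under 0.05 (IL6); there were 0 without the minimum, after median-ratio scaling and in both voom fits, and 0 to 3 when 1 library was left out (3 without PBS replicate 1: IL6, IL6ST and CSF1). With a replicate block, 303 genes were higher and 167 lower and 1 member had an unadjusted p under 0.05, IL18 at 0.031 in place of IL6; with the replicate block and without PBS replicate 4, 303 genes were lower and 0 members passed. The block is a number shared by labels only.

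The sign of the log2 fold change held for IL6, LIF, IL11, IL6ST, IL18, CSF1 and IL1B under each alternative. That of OSMR was 0.034 with voom and library weights and ranged from -0.051 to 0.037 when 1 library was left out, IL1A ranged from -0.63 to 0.077 and CSF2 from -0.31 to 0.74. The cause was not tested. IL6 was lowest, at 0.28, with the replicate block and without PBS replicate 4. IL1B reached 1.03 with a pseudocount of 0.01, where values rest on 0 to 5 fragments. In alternatives chosen after the data were seen, the 3 pathway genes at an unadjusted p under 0.05 became 2 after median-ratio scaling and 3 without PBS replicate 4. IL6R was under 0.05 in 13 of 17 fits, PIM3 in 18 of 18 and SOD2 in 14 of 18. Few fragments limit IL1A, IL1B and CSF2, and the shallow PBS replicate 4 limits the PBS mean of each gene.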
